A study of Mus musculus with 10 samples.

Results

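Claudins are the membrane proteins that form the strands of tight junctions, the seals between neighbouring epithelial or endothelial cells. The family members were taken as every gene of the accessibility table whose symbol is Cldn followed by a digit, which gave 33 of 21965 genes. Each claudin spans the membrane several times, and its outer loops meet those of claudins on the next cell. Some members tighten the barrier and others form pores for ions, so the set of claudins a cell makes determines what passes between cells. Fibroblasts form no epithelial barrier, whereas the colonies that arise when fibroblasts are reprogrammed to pluripotency take on epithelial junctions.

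Mouse embryonic fibroblasts grown in mouse embryonic stem cell medium were profiled by ATAC-seq, which marks open DNA through the insertions of a transposase. The fibroblasts of all conditions came from embryos with a GFP transgene under the Oct4 promoter and are labelled strain ICR. They were infected with pMXs retroviruses for Flag alone as the control, for Sox2, for Klf4, for Oct4, for the Oct4 mutant L80A (Oct4-L80A), or for Sox2, Klf4 and Oct4 together (SKO). In SKO-L80A the mutant replaced Oct4, and in SKO+shBrg1 a short hairpin RNA against the chromatin remodeller Brg1 was added. Vitamin C, 50 µg/ml in the medium, was added to SKO-L80A in SKO-L80A+Vc. SKO-L80A+Ga had a virus for Gadd45a besides, a protein linked to DNA demethylation. Each of the 10 conditions was 1 library of bulk infected cells, with 2 columns of signal per gene. The share of cells that carried each virus was not given in the sources used here, nor was the time of harvest, so more open cells and more signal per cell cannot be told apart. No replicate error exists, and differences are described by their size without a test. Values given in pairs are the first and the second column.

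The deposited signal summed to between 112439 and 370390 per column, and the depth in reads is unknown. The library labelled Oct4 had a signal of 62.9 and 55.2 over Sox2, against 2.73 and 5.12 in Flag and 75.5 and 87.1 in the library labelled Sox2, so it is called the library labelled Oct4 below. Pou5f1, the gene for Oct4, had 30.8 and 24.2 in that library and 0.812 and 1.12 in Flag. Of 10 fibroblast genes, among them Col1a1, Col1a2 and Pdgfra, none was at 0 in both columns of any condition. The same held for the 7 epithelial and 5 pluripotent markers listed, so this does not identify the starting cells.

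A claudin was called when its difference was at least 2-fold after subtracting the median of all genes and the higher of the mean signals compared was at least 6.92. That minimum is the median over all values of the table. Differences are on the log2 scale after adding 0.138 to each signal, averaged over both columns. Genes of low signal did not move with the median of all genes, so a second value relative to genes of like signal, in 20 bins of mean signal, is given for the low claudins. That scale, and a call without the minimum for genes at least 2-fold apart in both columns on it, were chosen after the values had been seen.

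Most claudin genes lay below the median signal of the table. Of the 33 members, 25 (75.8%) reached the minimum in no condition, against 41.3% of all genes. Cldn12 and Cldn34c1 reached it in all 10 conditions, as 42% of all genes did. Cldn1, Cldn3, Cldn6, Cldn10, Cldn18 and Cldn23 reached it in some conditions. Of these 8, Cldn1, Cldn3, Cldn6 and Cldn10 belong to the classic claudins, a subgroup defined by sequence similarity that holds 14 of the 33 members. Only Cldn3 passed the size rule in any of the 14 comparisons, and it did so in each comparison of a library with Sox2, Klf4 and Oct4 or L80A against Flag.

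**Figure D1:**
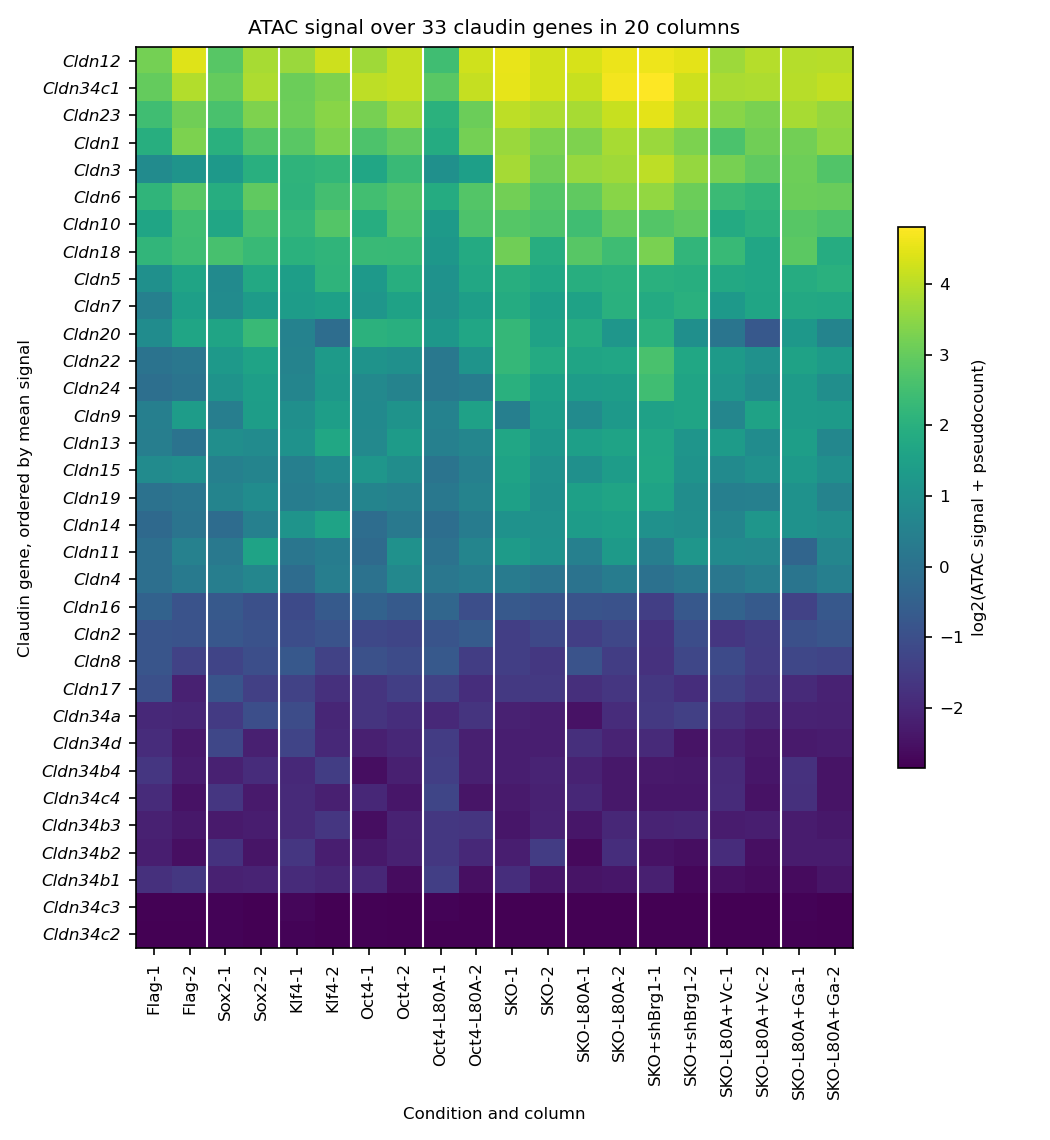
Deposited ATAC signal of the 33 claudin genes (rows, ordered by mean signal) in both columns of the 10 conditions, coloured by log2 of the signal plus the pseudocount. Cldn12 and Cldn34c1 are high throughout, 13 members lie below a signal of 1 in all 20 columns, and Cldn3 is brightest in the 5 conditions that hold Sox2, Klf4 and Oct4 or L80A.

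The deposited value of a gene followed the surroundings of its start site. Among 747 pairs of genes whose starts lie less than 500 bp apart, the median difference in mean log2 signal was 0.00017, and 86.9% of pairs differed by less than 0.1. Among 272 pairs with starts 3000 to 5000 bp apart, the median difference was 0.84. The promoter windows of the members on which the results turn are therefore shown, from 250 bases before to 50 bases after the RefSeq start in GRCm38.p6, read 5′ to 3′ on the gene's strand with CG dinucleotides in capitals. Cldn3 and Cldn4 neighbour each other and differed in response. Cldn14 and Cldn22 are low claudins called without the minimum, and Cldn12 was open throughout. The windows are chr5:134985964-134986263 on the plus strand for Cldn3, chr5:134946885-134947184 on the minus strand for Cldn4, chr16:94008788-94009087 on the minus strand for Cldn14, chr8:47824232-47824531 on the plus strand for Cldn22 and chr5:5514927-5515226 on the minus strand for Cldn12.
Cldn3: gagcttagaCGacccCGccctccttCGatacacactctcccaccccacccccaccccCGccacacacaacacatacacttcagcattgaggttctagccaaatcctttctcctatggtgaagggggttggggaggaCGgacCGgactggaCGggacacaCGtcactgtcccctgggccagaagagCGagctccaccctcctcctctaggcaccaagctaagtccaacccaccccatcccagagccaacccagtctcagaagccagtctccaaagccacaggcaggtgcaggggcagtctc
Cldn4: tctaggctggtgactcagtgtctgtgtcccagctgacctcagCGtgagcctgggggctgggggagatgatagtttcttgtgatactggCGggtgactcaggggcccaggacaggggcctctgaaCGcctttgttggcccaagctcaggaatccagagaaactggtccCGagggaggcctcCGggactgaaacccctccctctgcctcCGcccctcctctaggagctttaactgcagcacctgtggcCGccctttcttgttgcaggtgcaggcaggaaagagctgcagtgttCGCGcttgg
Cldn14: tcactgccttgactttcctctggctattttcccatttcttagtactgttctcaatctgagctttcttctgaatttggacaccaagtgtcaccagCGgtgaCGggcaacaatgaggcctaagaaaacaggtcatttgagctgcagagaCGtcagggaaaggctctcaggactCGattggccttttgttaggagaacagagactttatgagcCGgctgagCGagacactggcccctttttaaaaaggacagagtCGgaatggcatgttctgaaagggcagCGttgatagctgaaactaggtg
Cldn22: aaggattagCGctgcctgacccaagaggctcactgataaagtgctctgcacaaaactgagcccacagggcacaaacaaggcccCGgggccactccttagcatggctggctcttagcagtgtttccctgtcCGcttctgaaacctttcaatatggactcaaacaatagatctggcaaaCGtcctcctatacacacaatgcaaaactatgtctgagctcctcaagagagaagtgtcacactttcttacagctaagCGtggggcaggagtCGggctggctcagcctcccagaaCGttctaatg
Cldn12: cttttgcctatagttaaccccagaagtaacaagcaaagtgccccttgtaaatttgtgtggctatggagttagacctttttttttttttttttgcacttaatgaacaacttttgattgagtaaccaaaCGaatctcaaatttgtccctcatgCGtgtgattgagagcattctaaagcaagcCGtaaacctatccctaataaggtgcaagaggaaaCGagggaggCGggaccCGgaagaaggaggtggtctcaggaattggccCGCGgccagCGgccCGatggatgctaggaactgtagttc

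Cldn3 (ENSMUSG00000070473, chromosome 5, 134986214 to 134987476), a barrier-forming claudin of simple epithelia, was the 1 member that passed the size rule with its minimum. Its signal was 1.66 and 2.03 in Flag, 2.32 and 3.80 in Sox2, 4.21 and 4.55 in Klf4, and 1.83 and 2.63 in Oct4-L80A. The library labelled Oct4 gave 3.06 and 4.95. It was 13.6 and 8.68 in SKO, 12.2 and 12.8 in SKO-L80A, 16.2 and 11.9 in SKO+shBrg1, 9.31 and 7.52 in SKO-L80A+Vc and 8.58 and 6.48 in SKO-L80A+Ga. The 10 columns of the 5 combined conditions, from 6.48 to 16.2, lay above all columns of Flag and the single factors, whose highest value was 4.95, or 4.55 without the library labelled Oct4. Of all genes, 0.97% (213) were higher in the combined conditions with no overlap in this way, and 0.606% when each column was set relative to genes of like signal. Cldn3 did not overlap on either scale, and no other claudin met this on either.

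Against Flag, Cldn3 was higher by 2.48 on the log2 scale in SKO, which is 5.57-fold, and by 1.97 or 3.93-fold relative to all genes. Cldn3 was 1 of 33 claudins (3.03%) called in SKO, where 1.34% of all genes were called higher and 0.0865% lower. Only 6 of the 33 reached the minimum in SKO or Flag, against 56.8% of all genes, so the other claudins could not be called. Relative to all genes, its difference was 2.16 in SKO-L80A, where 1.31% of genes were called higher and 0.0819% lower. It was 2.21 in SKO+shBrg1, where 1.35% were called higher and 0.0911% lower. It was 2.08 in SKO-L80A+Vc, where 0.829% were called higher and 0.15% lower, and 1.70 in SKO-L80A+Ga, where 0.888% were called higher and 0.0455% lower. Both columns gave alike values in SKO, 1.96 and 1.94, although the median of all genes moved by 0.97 in the first column and 0.09 in the second. By size, Cldn3 ranked from 50th in SKO+shBrg1 to 97th in SKO-L80A+Ga among the 21965 genes. The comparisons share the Flag library, so these values are not independent. Relative to genes of like signal the differences were 1.75, 1.93, 1.97, 1.92 and 1.5 in the same order. The call without the minimum held for Cldn3 in all 5, where it gave 1.4%, 1.53%, 1.4%, 1.25% and 1.08% of all genes as higher, and in SKO-L80A against Oct4-L80A, where it gave 1.21%.

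Cldn3 did not pass the rule against Flag in any library labelled with a single factor. Relative to all genes it differed from Flag by 0.74 in Sox2, 1.17 in Klf4, 0.85 in the library labelled Oct4 and 0.40 in Oct4-L80A, with signals below the minimum in each. The Klf4 value exceeded 2-fold in both columns on this scale, 1.14 and 1.19, while the signal stayed at or below 4.55. Called genes made up 0.0637% of all genes (higher) in Sox2, 0.715% in Klf4, 0.191% in the library labelled Oct4 and 0.00911% in Oct4-L80A, and 0 of 33 claudins were called in these 4 comparisons in either direction. Called lower were 0.105%, 0.155%, 0.0683% and 0.00911% of all genes in the same order. Only 3, 4, 3 and 3 of the 33 claudins reached the minimum there, against 48.6%, 50.1%, 51.5% and 47.5% of all genes. The other claudins could not be called. Against Klf4 itself, a comparison added later, Cldn3 was higher in SKO by 1.29, or 0.79 relative to all genes, and was not called, where 0.656% of all genes were called higher and 0.164% lower. SKO-L80A against Oct4-L80A, also added later, gave 1.68 for Cldn3, which was called, where 1.14% of all genes were called higher and 0.041% lower.

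**Figure D2:**
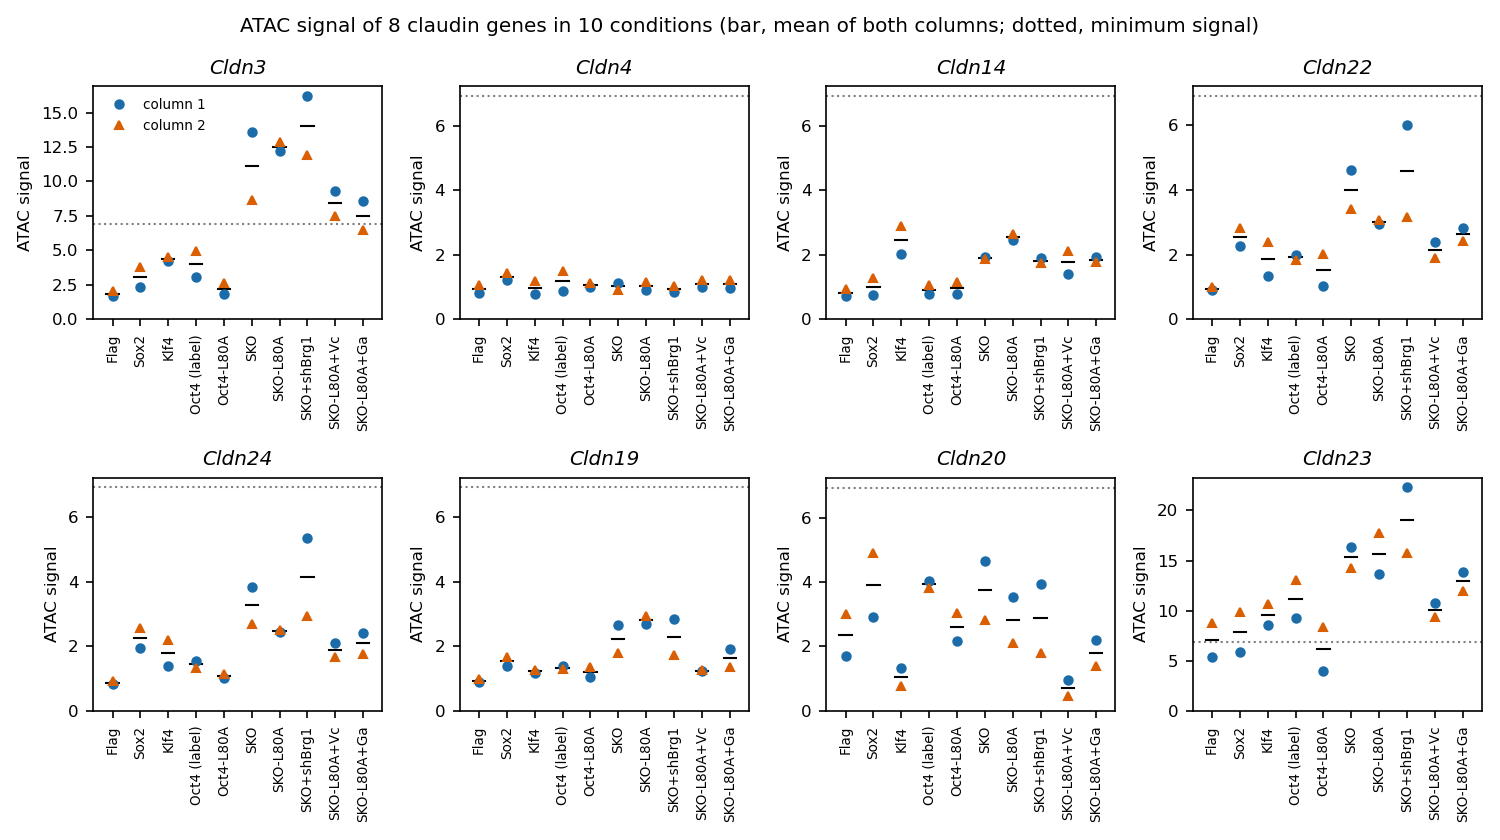
Deposited ATAC signal (vertical axis, linear from 0) of selected claudin genes in each condition (horizontal axis), with 1 point for each of the 2 columns and a dotted line at the minimum signal. Cldn3 lies between 6.48 and 16.2 in the 5 combined conditions and at or below 4.95 elsewhere, whereas Cldn4 stays between 0.772 and 1.49.

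The L80A mutation, Brg1 knockdown, vitamin C and Gadd45a left Cldn3 short of the rule when each was compared with its own reference library. SKO-L80A differed from SKO by 0.20 relative to all genes, SKO+shBrg1 from SKO by 0.26, and SKO-L80A+Vc from SKO-L80A by -0.08. SKO-L80A+Ga differed from SKO-L80A by -0.48, with -0.40 and -0.57 in its columns. Oct4-L80A differed from the library labelled Oct4 by -0.39, but the columns gave 0.05 and -0.83. Cldn3 lay below the minimum in both of those libraries, so it could not be called at any fold there. In these 5 comparisons 0 of 33 claudins were called in either direction. Of all genes, 0.00911% were called higher and 0.2% lower in Oct4-L80A set against the library labelled Oct4, and 0.00911% and 0% in SKO-L80A against SKO. The shares were 0.00455% and 0% in SKO+shBrg1 against SKO, 0% and 0.00911% in SKO-L80A+Vc against SKO-L80A, and 0% in both directions in SKO-L80A+Ga.

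Cldn4 (ENSMUSG00000047501, chromosome 5, 134945123 to 134946934), a barrier claudin often present in the same epithelia as Cldn3, lies 39.3 kb from it. Its signal was 0.831 and 1.07 in Flag and 1.12 and 0.921 in SKO, a log2 difference of 0.09, or -0.41 relative to all genes. Over all 20 columns it ran from 0.772 in Klf4 to 1.49 in the Oct4-labelled library, around a median of 1.04. Its highest column lay below the lowest of Cldn3. Cldn13, another claudin of the cluster, at 134914250 to 134915530, had 1.21 and 0.915 in Flag, 1.92 and 3.10 in Klf4, and 3.09 and 2.18 in SKO. Relative to genes of like signal, Cldn13 differed from Flag by 0.86 in Klf4, with 0.28 and 1.44 in the columns, and by 0.69 in SKO.

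The other neighbours of Cldn3 lay near the median of all genes. Relative to that median, SKO against Flag gave -0.11 for Mettl27, which lies between Cldn13 and Cldn4, -0.04 for Abhd11, 21.7 kb on the far side of Cldn3, 0.10 for Stx1a and 0.04 for Bud23. Abhd11 was open in all columns, at 36.5 and 47.9 in Flag and 73.0 and 46.0 in SKO. None of these 4 genes reached 2-fold in SKO.

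**Figure D3:**
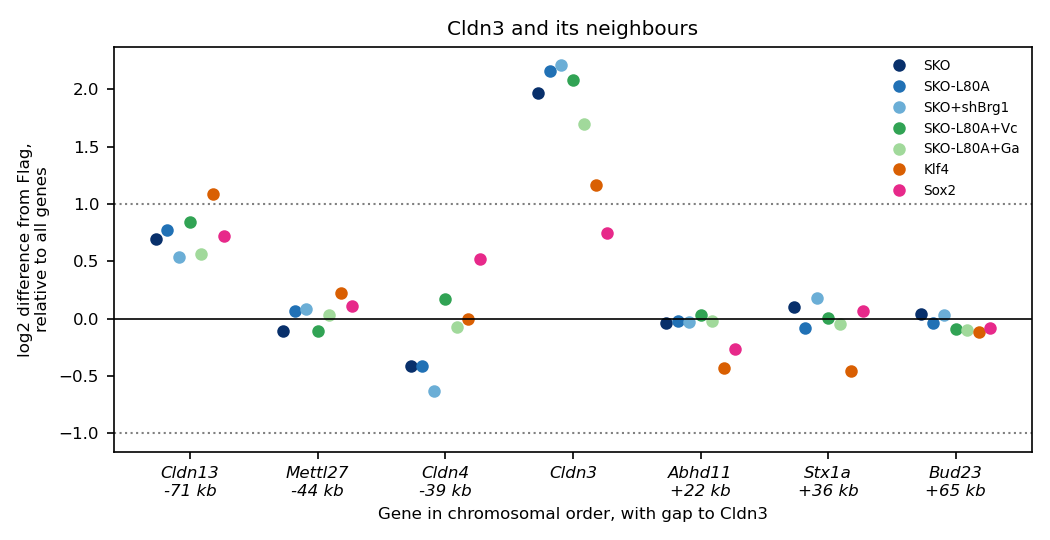
Log2 difference from Flag relative to the median of all genes (vertical axis) for Cldn3 and its 3 nearest genes of the table on each side, in chromosomal order (horizontal axis), with 1 point per condition. Cldn3 reaches 1.70 to 2.21 in the combined conditions, while Cldn4, Mettl27, Abhd11, Stx1a and Bud23 lie near 0 or below it in SKO.

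Cldn14 (ENSMUSG00000047109, chromosome 16, 93919031 to 94008837), a claudin of the inner ear and kidney, separated the libraries by Klf4, all at signals under the minimum. It was 0.716 and 0.925 in Flag, 0.761 and 1.27 in Sox2, and 0.798 and 1.16 in Oct4-L80A. The library labelled Oct4 gave 0.787 and 1.05. It was 2.03 and 2.88 in Klf4, 1.93 and 1.87 in SKO, 2.45 and 2.63 in SKO-L80A, 1.89 and 1.75 in SKO+shBrg1, 1.41 and 2.12 in SKO-L80A+Vc and 1.92 and 1.78 in SKO-L80A+Ga. The 6 conditions with Klf4, from 1.41 to 2.88, did not overlap the 4 without it, from 0.716 to 1.27. Of all genes, 1.37% were higher with no overlap in this split, and 1.53% relative to genes of like signal. Cldn14 was the 1 claudin of 33 (3.03%) on either scale, which cannot be set apart from these shares. The 6 conditions with Klf4 include the 5 combined conditions. Klf4 against Flag gave 1.43 on the log2 scale and 1.24 relative to genes of like signal, with 1.17 and 1.31 in the columns. On that scale and without the minimum, Cldn14 was the 1 claudin called higher in Klf4 in both columns, where 1.2% of all genes were called higher.

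Cldn22 and Cldn24 (chromosome 8, 47824482 to 47825475 and 47822143 to 47822805), neighbours whose starts lie 2339 bp apart and whose roles are little known, had their lowest signals in Flag. Because their starts are this close, their signals may draw on the same open DNA and are not independent. Among 110 pairs of genes with starts 2000 to 3000 bp apart, 46.4% differed by less than 0.1 in mean log2 signal. Cldn22 had 0.908 and 0.987 in Flag, 2.28 and 2.84 in Sox2, 1.34 and 2.38 in Klf4, and 1.03 and 2.03 in Oct4-L80A. The library labelled Oct4 gave 1.99 and 1.85. It had 4.63 and 3.40 in SKO, 2.95 and 3.07 in SKO-L80A, 6.0 and 3.15 in SKO+shBrg1, 2.38 and 1.89 in SKO-L80A+Vc and 2.83 and 2.42 in SKO-L80A+Ga. Flag was the lowest in both columns, and no column reached the minimum. Cldn24 had 0.820 and 0.925 in Flag, 1.96 and 2.57 in Sox2, 1.40 and 2.18 in Klf4 and 3.85 and 2.70 in SKO. Conditions with and without Sox2 overlapped for both genes.

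Relative to genes of like signal, Sox2 against Flag gave 1.33 for Cldn22 and 1.26 for Cldn24, and both were called without the minimum, where 0.455% of all genes were called higher. In SKO the differences were 1.42 and 1.23, and in SKO+shBrg1 1.41 and 1.38. Both genes were called without the minimum there, as was Cldn3, among 1.4% of all genes in each comparison. In SKO-L80A they were 1.01 and 0.84 and were not called. SKO-L80A against SKO gave -0.40 for Cldn22 and -0.38 for Cldn24, a difference that no rule called. Wwc2, an open gene 607 bp from Cldn22, differed from Flag by 0.47 relative to all genes in SKO.

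Cldn19, a claudin of the kidney and of myelinating Schwann cells, had its highest mean signal in SKO-L80A. It had 0.879 and 0.976 in Flag, 2.66 and 1.80 in SKO, 2.69 and 2.94 in SKO-L80A, 1.24 and 1.26 in SKO-L80A+Vc and 1.92 and 1.35 in SKO-L80A+Ga. Relative to genes of like signal, SKO-L80A against Flag gave 1.27, and Cldn19 was called without the minimum there beside Cldn3 and Cldn14, among 1.53% of all genes. SKO-L80A+Vc against SKO-L80A gave -0.93 on the same scale, with both columns short of 2-fold at -0.95 and -0.90.

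Cldn20 (chromosome 17, 3532554 to 3533213), a little-studied member that lies within the span of Tfb1m, had its lowest signals with vitamin C and with Klf4 alone. It had 1.69 and 3.0 in Flag, 2.91 and 4.90 in Sox2, 1.32 and 0.784 in Klf4, and 2.18 and 3.04 in Oct4-L80A. The library labelled Oct4 gave 4.03 and 3.82. It had 4.65 and 2.82 in SKO, 3.52 and 2.09 in SKO-L80A, 3.95 and 1.79 in SKO+shBrg1, 0.951 and 0.463 in SKO-L80A+Vc and 2.2 and 1.38 in SKO-L80A+Ga. The second column was the lower in all 6 conditions with Klf4. Relative to genes of like signal, SKO-L80A+Vc differed from SKO-L80A by -1.40, with -1.43 and -1.36 in the columns. Cldn20 was the 1 claudin called lower without the minimum there, among 0.232% of all genes. Against Flag, SKO-L80A+Vc gave -1.70, called among 0.724% of all genes.

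For Klf4 against Flag, Cldn20 gave -0.65 and -1.95 in the columns, so the call was not met in the first. SKO against Klf4 gave 1.45 relative to genes of like signal, and Cldn20 was called without the minimum, among 0.997% of all genes. Tfb1m, the mitochondrial factor gene around it, was open in every column and differed from Flag by -0.02 relative to all genes in SKO.

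The claudins that reached the minimum in all conditions did not pass the rule in any comparison. Cldn12, a widely expressed claudin, had 9.05 and 21.3 in Flag and 23.4 and 19.4 in SKO, a difference of 0.10 relative to all genes, with 0.38 and -0.23 in the columns. Cldn34c1, on chromosome X, had 7.84 and 14.9 in Flag and 22.8 and 19.3 in SKO, a difference of 0.44. The second Flag column of Cldn12 lay between the SKO columns, whereas that of Cldn34c1 lay below them.

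Cldn23 came nearest to the rule after Cldn3 among the open members. It had 5.34 and 8.75 in Flag, 8.55 and 10.6 in Klf4, 16.4 and 14.3 in SKO, 13.7 and 17.7 in SKO-L80A and 22.4 and 15.7 in SKO+shBrg1. Its log2 difference from Flag was 1.14 in SKO and 1.44 in SKO+shBrg1, but 0.64 and 0.82 relative to all genes, short of 2-fold. It was 2-fold higher only on the scale that ignores the shift of all genes, whose median was 0.50 higher in SKO and 0.62 higher in SKO+shBrg1.

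Cldn1, the claudin of the epidermal barrier, had 3.69 and 9.56 in Flag and 12.5 and 9.69 in SKO, with 0.75 and -0.07 in the columns relative to all genes. Cldn6, a claudin of early embryonic epithelia, had 4.36 and 6.90 in Flag and 8.79 and 6.59 in SKO, a difference of -0.04. Cldn10, an ion-channel claudin of kidney and gland, had 3.02 and 5.34 in Flag and 6.77 and 6.22 in SKO, and reached the minimum in 1 condition. Cldn18, of lung and stomach, had 4.44 and 5.20 in Flag and 8.67 and 3.61 in SKO, and gave -0.63 in Oct4-L80A against Flag. None of these values met the rule. Cldn9, whose gene lies 138 bp from Cldn6, stayed between 1.20 and 2.92.

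The closed members made up the largest group. The signal was below 1 in all 20 columns for 13 claudins (39.4%), against 20.4% of all genes. These were 10 of the 11 members on chromosome X, all but Cldn34c1 being among them, together with Cldn8, Cldn16 and Cldn17. Cldn2, the cation pore of leaky epithelia, is one of the members on chromosome X and ran from 0.165 to 0.496. Cldn16, which works with Cldn19 in magnesium handling by the kidney, ran from 0.232 to 0.668, and Cldn8, of the distal nephron, from 0.155 to 0.475. The highest signals of Cldn34c2 and Cldn34c3 were 0.0075 and 0.013. The Cldn34 genes include closely related copies, and how reads matching several of them were counted was not given in the sources used here, so their levels are uncertain.

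The remaining members lay between these groups. Cldn5, the claudin of the blood-brain barrier, ran from 1.61 to 4.20, and Cldn7, of gut and distal nephron, from 1.25 to 3.90. Cldn11, of myelin and Sertoli cells, ran from 0.641 to 2.87, and Cldn15, a cation pore of the gut, from 0.920 to 3.11. All of these 4 stayed below the minimum, so the size rule could not call them, and none was called without the minimum. Over all 33 members, the median difference from Flag relative to genes of like signal was 0.12 in Sox2, 0.06 in Klf4, 0.00 in SKO and 0.12 in SKO-L80A+Vc, where the median of all genes is 0.

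Proteins that join claudins to the junction were counted in the same way. Of 31 listed tight junction partners, 29 were in the table and 23 of them reached the minimum in SKO or Flag. In SKO against Flag 0 were called, where 1.34% of all genes were called higher and 0.0865% lower. These shares are too small to set a list of 29 genes apart. Ildr2, of the angulins that mark corners where several cells meet, was the 1 partner called in Klf4, where 0.715% of all genes were called higher. Ocln, the gene of occludin, had 1.86 and 2.43 in Flag and 2.94 and 3.23 in SKO, and Tjp1, the ZO scaffold, had 6.23 and 11.1 in Flag and 17.8 and 13.9 in SKO, 0.40 relative to all genes.

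Of 12 other proteins with the claudin-like fold, Perp, a desmosome protein, was called in Klf4, SKO, SKO-L80A, SKO+shBrg1 and SKO-L80A+Vc against Flag. Of all genes, 0.715%, 1.34%, 1.31%, 1.35% and 0.829% were called higher there in the same order. The signal of Perp was 2.17 and 5.12 in Flag and 10.5 and 10.3 in SKO, which is 2.12-fold relative to all genes. Of 17 epithelial genes, only 3 reached the minimum in SKO or Flag, so the others could not be called. Krt8, a keratin of simple epithelia, was the 1 called in SKO, where 1.34% of all genes were called higher. Krt8 had 1.68 and 3.14 in Flag and 9.11 and 7.26 in SKO, a difference of 1.26 relative to all genes. Grhl2, a transcription factor that acts on claudin genes in epithelia, had 1.05 and 1.68 in Flag and 6.55 and 4.23 in SKO. Its difference of 1.37 relative to all genes was larger than that of Krt8, but its signal lay below the minimum. Cdh1, the gene of E-cadherin, had 1.36 and 1.86 in Flag and 1.56 and 2.43 in SKO, a difference of -0.23 relative to all genes. On the same scale Krt18 gave -0.08, Epcam 0.19 and Esrp1 1.25, all below the minimum in SKO. The median of the 17 epithelial genes was 0.19 in SKO against Flag. None of 8 mesenchymal genes and repressors, among them Snai1, Zeb1 and Vim, was called in any comparison. Of all genes, at most 1.35% were called higher and 0.2% lower in a comparison, so 8 genes cannot be set apart from these shares.

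Summed marker signal of several cell types was higher in the combined conditions, whose columns summed to 196742 to 370390 over all genes, against 112439 to 250920 in the others. The summed signal of 7 epithelial markers ran from 10.3 to 15.2 in Flag, from 10.1 to 25.3 over Flag and the single factors, and from 23.9 to 42.1 in the 5 combined conditions. As a share of all signal it was 0.0061% to 0.0119% without and 0.0094% to 0.0124% with the combination. None of the 7 was at 0 in both columns of any condition. Krt8 was the only marker of the 7 to reach the minimum in SKO or Flag, and the only one called in SKO. The summed signal of the 10 fibroblast markers was 50.5 to 108 without and 74.0 to 138 with the combination. As a share it was 0.0434% to 0.0470% in Flag, 0.0360% to 0.0470% over Flag and the single factors, and 0.0360% to 0.0399% with the combination, so the combined conditions lay below Flag. Sums of 6 endothelial markers were 7.72 to 16.2 without and 17.8 to 27.9 with the combination, and their shares 0.0049% to 0.0079% and 0.0070% to 0.0094%. Sums of 6 glia and Sertoli markers were 13.4 to 29.1 and 29.2 to 47.2, and their shares 0.0107% to 0.0125% and 0.0120% to 0.0150%. Both sums did not overlap, unlike the epithelial one, though the glia and Sertoli sums came as close as 29.1 and 29.2. The shares of all 4 lists overlapped. Sums of 5 trophectoderm markers, 9.25 to 18.4 without and 14.5 to 24.6 with the combination, overlapped. So did those of 5 pluripotent markers, Pou5f1 among them, at 3.71 to 54.6 and 12.2 to 34.3. Of the 6 glia and Sertoli markers, 1 was called higher in SKO+shBrg1 and in SKO-L80A+Vc against Flag. Of all genes, 1.35% and 0.829% were called higher there, and the sums were not given without that marker. The part of these markers in the Cldn3 result was not tested.

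Promoter sequence was examined for the 25 claudins with a RefSeq window, beside 16431 promoters of the table. Claudin promoters held a median of 7 CG dinucleotides, against 14 for all promoters, and 6 of 25 (24%) held 10 or more, against 58.9%. Across the 25 genes, the CG count and the mean log2 signal had a Spearman correlation of 0.72, and across all promoters 0.68. These are descriptions across genes that share libraries and base composition. Cldn34c1 held 28 CG, Cldn11 24, Cldn1 15 and Cldn12 10. Cldn11 had a median signal of 1.34 despite its CG count. Cldn3 and Cldn4 held 9 each, although their median signals were 5.72 and 1.04.

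**Figure D4:**
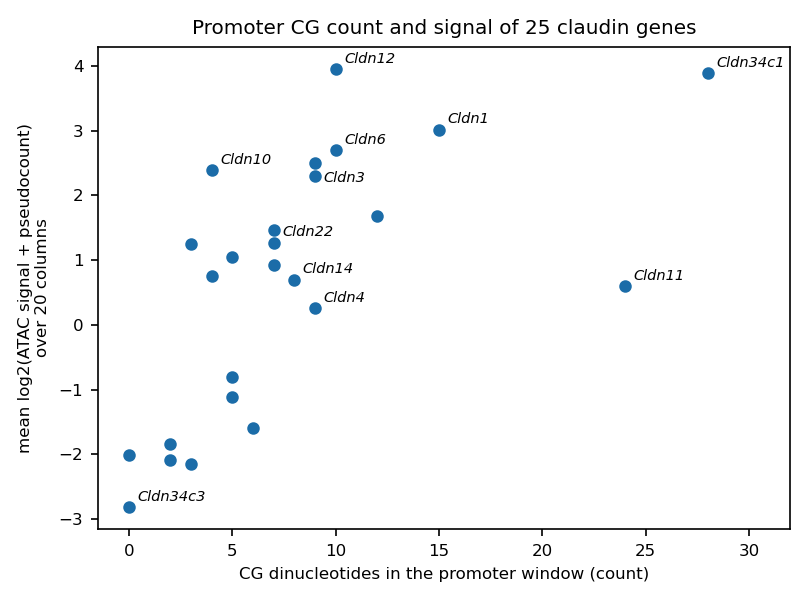
CG dinucleotides in the promoter window (horizontal axis, count) against mean log2 of the signal plus the pseudocount over 20 columns (vertical axis) for 25 claudin genes, 1 point per gene. Signal is higher for promoters with more CG, Cldn11 lies low at 24 CG, and Cldn3 and Cldn4 share a count of 9 at different signals.

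Short motifs were searched on both strands of each window. GGGNGTG, a KLF-type motif, was in 6 of 25 claudin windows (24%) and 31.6% of all windows. In the Cldn3 window it occurs in 2 overlapping copies on the opposite strand, at -205 and -199 from the start, and the Cldn4 and Cldn14 windows do not hold it. CACCTG, the E-box of Snail and Zeb factors, was in 4 claudin windows (16%) and 19.4% of all windows. Cldn3 held it once, at 31 after the start, and Cldn4 at -14 and 11. ACAANG, a SOX-type motif, was in 11 claudin windows (44%) and 38.1% of all. Cldn22 held 2 copies, at -176 and -58, Cldn14 held 1 at -144, and the Cldn3 window held none. The octamer ATGCAAAT, bound by Oct4-type factors, was in 0 claudin windows and 1.66% of all. TGANTCA, the AP-1 motif, was in 5 claudin windows (20%) and 7.11% of all, with 2 copies in Cldn4, at -240 and -158. GGAATG, the TEAD-type motif, was in 8 claudin windows (32%) and 13.2% of all, among them Cldn14 and Cldn6. AACCNGTT, a GRHL-type motif, was in 1 claudin window (4%), that of Cldn5, and 1.95% of all. GGGCGG, the GC box, was in 9 claudin windows (36%) and 48.0% of all, among them Cldn3 and Cldn4. A match describes letters in the window and no binding was measured.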

How the data were processed

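The authors deposited a table of ATAC-seq signal for 21965 genes in 20 columns, 2 for each of 10 conditions with 1 library each. How the columns of a condition relate was not given in the sources used here, and they were counted as 1 replicate. The submitters' processing notes name build mm10, bedtools 2.25.0, Bowtie2 2.2.5, cutadapt 1.13, deepTools, DESeq2 1.22.2, MACS2 2.1.0, Picard, SAMtools 1.3.1 and Trimmomatic 0.35. The counting window and the scaling were not given in the sources used here, which could change levels between genes and libraries.

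With Python 3.11.15, numpy 2.4.6 and pandas 2.3.3, log2 of the signal plus 0.138 (the 10th percentile of values above 0) was averaged over both columns and compared in 14 comparisons, 9 of them against Flag, over all genes. The rule of 2-fold relative to the median of all genes, with a minimum of 6.92, was tested on simulated data. The simulated folds were set in genes at or above the minimum in Flag, with the same shift of all genes in both columns. Genes that start below the minimum, as Cldn3 did, were therefore not covered. A further 2 comparisons and the scale relative to genes of like signal were added after the values were seen. The splits of conditions without overlap, by the combination and by Klf4, were not among the planned comparisons either. Alternatives were other pseudocounts, quantile normalisation, no minimum, no centring and each column alone.

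All 33 claudins are accounted for. Values in each condition are given for Cldn3, Cldn14, Cldn20 and Cldn22. Other members at the minimum in any condition, neighbouring claudins and Cldn19 are given in selected conditions or by range. Some listed partner genes past the rule are given in selected conditions, and the remaining members by range or as a group. Other listed genes are named for their roles, and 1 listed gene is not reported here. The members and lists were chosen with earlier results of these data known. All 33 symbols matched RefSeq (GRCm38.p6), and 25 had a promoter window, of which the first listed was used.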

Additional observations from a re-analysis of the deposited data

How the results depend on the processing

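Quantile normalisation, a pseudocount 4 times larger or smaller, the first column alone, the fold met in each column by itself and the scale of genes of like signal gave the same number of called claudins in all 16 comparisons. Without centring on the median of all genes, 2 claudins were called in SKO and 2 in SKO-L80A against Flag, 3 in SKO+shBrg1 against Flag, 2 in SKO against Klf4 and 4 in SKO-L80A against Oct4-L80A, all higher. Of all genes, 6.26%, 6.3%, 10.1%, 5.53% and 16% were called there in the same order, shares near those of the claudins. Cldn3 was among them each time, and the others were Cldn23, Cldn34c1, Cldn12 and Cldn1. Dropping only the minimum from the size rule, relative to all genes, differs from the call on genes of like signal used above. Against Flag it called 2 in Sox2, 4 in Klf4, 3 in SKO, 3 in SKO-L80A, 8 in SKO+shBrg1, 3 in SKO-L80A+Vc and 3 in SKO-L80A+Ga. Of all genes, 1.61%, 3.16%, 5.24%, 5.49%, 7.23%, 3.31% and 2.86% were called there in the same order. The same setting called 1 in Oct4-L80A against Oct4 (Cldn34b3), 1 in SKO-L80A+Vc against SKO-L80A (Cldn20), 3 in SKO against Klf4 and 8 in SKO-L80A against Oct4-L80A, among 3.67%, 2.13%, 7.55% and 14.7% of all genes. Of the 8, 5 were lower in SKO+shBrg1 and 7 in SKO-L80A against Oct4-L80A. Those added calls have low signal. With the second column alone, SKO-L80A+Ga against Flag had 0 called, since Cldn3 lay at 6.48 there, under the minimum. Over the 6 comparisons that called Cldn3, its difference ran from 1.68 to 2.21 relative to all genes, from 1.52 to 1.98 after quantile normalisation and from 1.5 to 1.97 relative to genes of like signal. Cldn3 kept its direction in these 6 under all settings. For members not called, centring can turn the sign: without and with it, Cldn4 in SKO gave 0.09 and -0.41, Cldn20 in SKO-L80A 0.25 and -0.26, and the claudin median in SKO-L80A 0.28 and -0.24. No paired analysis was possible because each condition has 1 library and no test was made. The number of reads is unknown, so signals under 1 carry an unknown counting error, and no difference could be set against replicate spread.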
